A study of Mus musculus with 14 samples.

Results

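The comparison covers 6 RNA-seq libraries of sorted mouse liver leukocytes out of 14 libraries in the series, 3 made from 2500 cells and 3 made from 5000 cells. They were chosen by their titles, and all genes of the count table were considered. Every animal was of wild-type (WT) genotype with the treatment given as none, and the CD45+ cells of each sample were taken by flow cytometry out of needle biopsies of the liver. The groups share genotype, tissue, sort and library method and differ in the labels only in the number of cells. Strain, age, sex and the gating strategy are not given in the sources used here. The other libraries are 3 from 10000 cells, 3 from 20000 cells and 2 from bulk liver tissue. The labels do not say whether the 3 libraries of a cell number came from separate mice, so the p-values below measure the spread between these samples only, and that spread may be technical.

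CD45 is a tyrosine phosphatase on the surface of nucleated blood cells, and a sort on it is meant to collect the resident and passing immune population of the liver. How fully each cell type was collected is not known here. That population includes Kupffer cells, which are the macrophages of the sinusoids, as well as monocytes, neutrophils, dendritic cells, B cells, T cells, natural killer cells and antibody-secreting plasma cells. When few cells are collected, a rare cell type contributes few cells to each sample, and low-abundance transcripts contribute few molecules to the cDNA. A plasma cell puts a large part of its RNA into the chains of a single antibody.

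Total counts were 9231652, 10091328 and 8603437 at 2500 cells and 8513416, 14496314 and 10385463 at 5000 cells. Levels of single genes are given as CPM, the counts of a gene scaled to the total of its library. Ptprc, which encodes CD45, measured 2565, 2554 and 2559 CPM at 2500 cells and 2577, 2504 and 2334 CPM at 5000 cells. The groups overlapped, and the log2 difference of 2500 minus 5000 cells was 0.05 (SE 0.04, edgeR adjusted p = 0.836, n = 3 a group). The 15 pan-leukocyte genes, among them Ptprc and the actin regulator Coro1a, all lay within 1.5-fold of equal and together held 1.63 to 1.77% of counts in each of the 6 libraries, against 0.0214% in bulk liver. Of these genes 12 had a positive difference and 3 a negative one. In 2 of them (13.3%) all libraries of 2500 cells lay above all of 5000 cells, against 5.21% of all tested genes, and in 0 below. The 26 hepatocyte genes held 0.0491 to 0.0653% of counts in these libraries and 14.7% in bulk liver.

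Few genes differed between libraries of 2500 and 5000 cells by more than the error, which was estimated over all 12 sorted libraries. Of 14795 genes tested, 2 passed an adjusted p of 0.05, which is 0.0135%, and both were lower at 2500 cells: Jchain and the antibody segment Ighv1-63. The test was edgeR's quasi-likelihood F test with Benjamini-Hochberg adjustment, fitted over the 12 sorted libraries. Replicates of 10000 and 20000 cells, which enter that fit, spread less than those of 2500 cells. The median log2 difference over all tested genes was 0.0036, the median size of a difference was 0.12, and 13656 genes (92.3%) lay within 1.5-fold. At an unadjusted p under 0.05 there were 1136 genes (7.68%), and 707 when edgeR was fitted to the 6 libraries alone. Libraries of 2500 cells lay wholly below those of 5000 cells for 737 genes (4.98%) and wholly above them for 771 genes (5.21%). DESeq2 called 34 genes (12 higher, 22 lower), edgeR without a filter on low counts 136, and limma-voom 0, with 1259 genes at an unadjusted p under 0.05. With 1 library left out edgeR called 6, 4 and 4 genes without replicates 1, 2 and 3 of 2500 cells, and 4, 1 and 2 without those of 5000 cells. The same fit called 29 genes between 2500 and 10000 cells and 0 between 5000 and 10000 cells, where 664 genes had an unadjusted p under 0.05. These contrasts share libraries, and the difference between them was not tested.

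**Figure D1:**
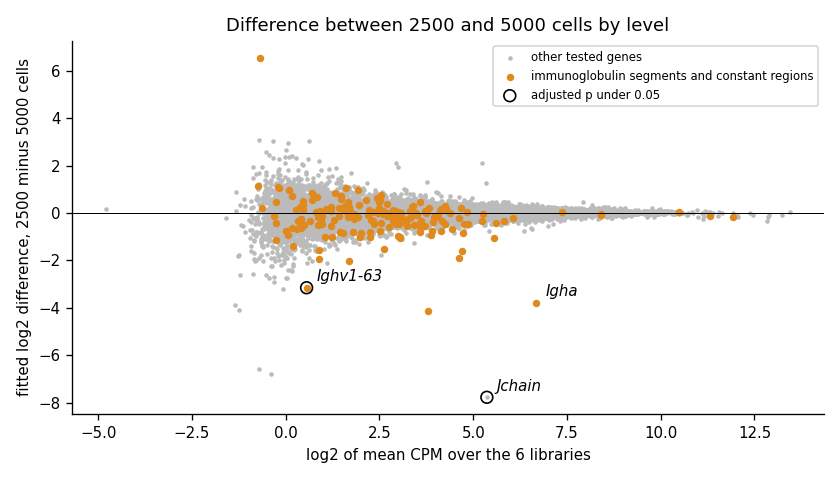
Fitted log2 difference of 2500 minus 5000 cells (vertical axis) for 14795 tested genes against the log2 of their mean CPM over the 6 libraries (horizontal axis). Orange points are immunoglobulin genes and black circles mark the 2 genes that passed, Jchain and Ighv1-63, which lie far below 0, while 92.3% of genes lie within 1.5-fold.

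The largest of the 14795 fitted differences was that of Jchain, which was almost absent from the libraries of 2500 cells. Jchain encodes the joining chain that links IgA and IgM antibodies into polymers before secretion and is a hallmark of antibody-secreting cells. The gene (ENSMUSG00000067149) lies on the minus strand of chromosome 5, from 88519809 to 88527891 of GRCm38. It had 6, 4 and 0 counts at 2500 cells, which is 0.650, 0.396 and 0 CPM, and 968, 1108 and 569 counts at 5000 cells, which is 114, 76.4 and 54.8 CPM. Every library of 5000 cells was thus far above every library of 2500 cells. The means were 0.349 ± 0.328 CPM and 81.6 ± 29.8 CPM (SD, n = 3 each), and the log2 difference was -7.77 (SE 0.52, 95% interval -8.91 to -6.64, edgeR adjusted p = 0.0002125). Libraries of 10000 cells had 66.1 ± 17.3 CPM and those of 20000 cells 57.6 ± 1.27 CPM (SD, n = 3 each). Jchain thus lay between 47.1 and 114 CPM in every library of 5000 or more cells and below 1 CPM in all 3 of 2500. The adjusted p was 0.2285 with limma-voom, at a log2 difference of -8.15, and Jchain passed in every other fit that was run. In such libraries fewer cells of a type and less RNA per cell cannot be told apart.

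Igha, the constant region of the IgA heavy chain, was lower in all 3 libraries of 2500 cells, although it did not pass the test. The gene (ENSMUSG00000095079) lies on the minus strand of chromosome 12, from 113254830 to 113260236 of GRCm38. Its level was 9.21, 27.7 and 2.67 CPM at 2500 cells and 161, 113 and 294.9 CPM at 5000 cells. The lowest library of 5000 cells thus lay above the highest of 2500 cells, and the spread among the latter was itself wide. The log2 difference was -3.79 (SE 0.63, edgeR adjusted p = 0.1643), and DESeq2 gave an adjusted p of 6.802e-05. Mean levels at 10000 and 20000 cells were 239 ± 34.8 CPM and 239 ± 51.8 CPM (SD, n = 3 each).

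**Figure D2:**
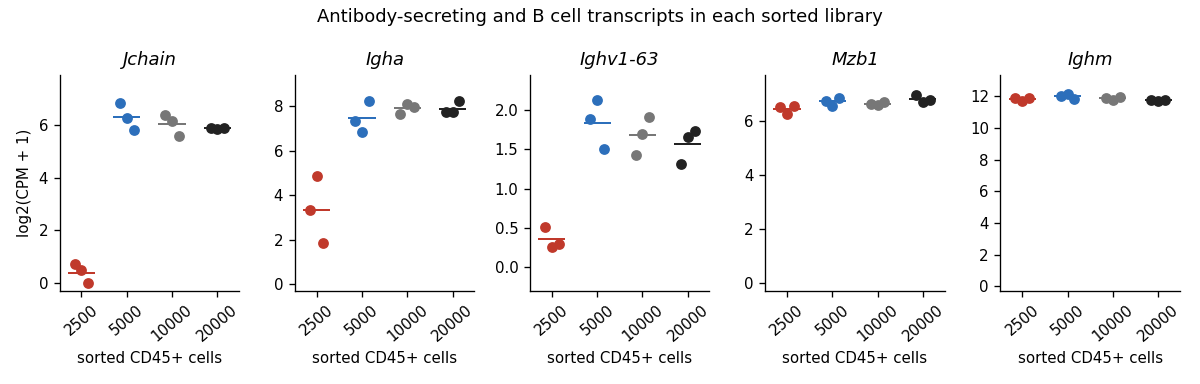
Level as log2(CPM + 1) (vertical axis) of 5 antibody-related genes in the 12 sorted libraries by number of sorted cells (horizontal axis), with 1 point per library and a bar at the mean of 3 libraries. Jchain, Igha and Ighv1-63 sit apart at 2500 cells, whereas Mzb1 and the IgM constant region Ighm lie near the other inputs.

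The second gene that passed, Ighv1-63, is a variable segment of the antibody heavy chain, the part that is joined to diversity and joining segments in each B cell and helps to form the antigen-binding site. It lies outside the rule for named genes, which asked for 5 CPM, and was singled out after its values were seen. The segment (ENSMUSG00000096672) lies on the minus strand of chromosome 12, from 115495625 to 115496058 of GRCm38. Reads of such a segment can be shared with its near relatives. Among 212 annotated mouse variable segments, pseudogenes left out, Ighv1-54 was the most similar to Ighv1-63. Bases were compared position by position from the end of the transcript, without gaps, so a relative of shifted length could be missed. The 2 sequences are shown together. Both are the last 294 bases of the annotated transcript, from GENCODE M21 on GRCm38, with capitals where the 2 sequences differ:
Ighv1-63: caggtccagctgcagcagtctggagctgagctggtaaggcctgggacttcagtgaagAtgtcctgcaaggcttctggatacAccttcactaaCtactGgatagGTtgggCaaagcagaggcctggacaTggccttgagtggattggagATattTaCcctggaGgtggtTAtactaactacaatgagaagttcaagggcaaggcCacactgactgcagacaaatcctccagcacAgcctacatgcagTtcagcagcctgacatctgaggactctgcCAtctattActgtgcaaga
Ighv1-54: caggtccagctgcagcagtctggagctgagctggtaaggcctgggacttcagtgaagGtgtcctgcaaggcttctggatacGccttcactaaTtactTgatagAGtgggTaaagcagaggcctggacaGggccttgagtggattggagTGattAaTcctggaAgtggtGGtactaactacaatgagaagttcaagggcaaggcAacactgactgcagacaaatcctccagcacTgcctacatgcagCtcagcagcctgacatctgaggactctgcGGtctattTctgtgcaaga
They differed at 21 of 294 bases, an identity of 92.86%, and the next segments, Ighv1-55 and Ighv1-77, differed from Ighv1-63 at 27 and 28 bases. Ighv1-63 had 4, 2 and 2 counts at 2500 cells and 23, 49 and 19 counts at 5000 cells, and the groups did not overlap. The log2 difference was -3.15 (SE 0.50, edgeR adjusted p = 0.04005, n = 3 each). Ighv1-54 had 34, 26 and 14 counts at 2500 cells and 18, 120 and 53 at 5000 cells, which overlap, with an adjusted p of 0.5316. The call on Ighv1-63 did not hold without replicate 2 (adjusted p = 0.08326) or 3 (0.08404) of 2500 cells, or without replicate 1 (0.05866) or 2 (0.2665) of 5000 cells. It was also lost when only the 6 libraries were fitted (edgeR adjusted p = 0.4899), with the hepatocyte share of counts as a covariate (0.1401) and with limma-voom (0.1669).

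Other plasma cell genes gave a mixed picture. Of 9 genes on the list 8 were tested, 1 passed (Jchain, lower), 3 lay wholly lower at 2500 cells (Jchain, Igha and Mzb1), and the median log2 difference was -0.38. The list's shares were 12.5% passed and 37.5% wholly lower, against 0.0135 and 4.98% of all genes. Jchain and Igha were named by earlier results of these data, so the list is no independent evidence of the direction. Mzb1, a chaperone-like protein of the endoplasmic reticulum in B and plasma cells, measured 91.0, 75.5 and 93.9 CPM against 106, 93.3 and 115 CPM, a log2 difference of -0.27 (edgeR adjusted p = 0.474). Tnfrsf17, the receptor BCMA on which plasma cells depend for survival, had 0 counts in all 3 libraries of 2500 cells and 9, 8 and 5 counts at 5000 cells. Against a floor of 3 counts over the 2500-cell group it was at least 6.13-fold lower there, and its counts were too low for the fit. Derl3, which serves protein export from the endoplasmic reticulum, had a log2 difference of -1.05 with overlapping libraries. Xbp1 and Prdm1, transcription factors of plasma cell differentiation that other leukocytes also express, had differences of -0.04 and 0.10, and the surface proteoglycan Sdc1 -0.06.

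The antibody classes did not move as 1 group. The IgG3 constant region Ighg3 was at 0.758, 1.59 and 1.51 CPM at 2500 cells and 2.00, 8.76 and 4.53 CPM at 5000 cells, without overlap but with an edgeR adjusted p of 0.1914. Ighg2b was high in 1 library of each input, with 23.5, 2.08 and 1.39 CPM against 4.93, 24.8 and 6.64 CPM. Ighg1 ran the other way, with 3.57, 0.0991 and 0 CPM at 2500 cells and no count in any library of 5000 cells. The constant regions that naive B cells express stood close together: the log2 difference was -0.15 for Ighm of IgM, 0.05 for Ighd of IgD and -0.14 for the kappa light chain Igkc. Of the 15 B cell genes, 15 lay within 1.5-fold and the median difference was 0.02. Of the 11 immunoglobulin constant genes tested, 3 (27.3%) lay wholly lower at 2500 cells, against 4.98% of all genes. These were Igha, Ighg3 and, in spite of its small difference, Igkc. None lay wholly higher, against 5.21% of all genes. None passed the edgeR test.

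Among 161 variable segments tested, 97 had a negative difference and 64 a positive one, with a median of -0.17 against 0.0036 over all genes. In 16 of them (9.94%) the libraries of 2500 cells lay wholly lower, against 4.98% of all genes, and in 4 (2.48%) wholly higher, against 5.21%. The summed level of heavy chain segments was 389, 326 and 394 CPM at 2500 cells and 497, 450 and 525 CPM at 5000 cells. Kappa segments summed to 823, 675 and 819 CPM and to 889, 817 and 1102 CPM. The heavy chain sums did not overlap between the inputs, while those of the kappa chain did by a small margin. The separation of the heavy chain sums depended on a single segment in a single library. Without Ighv4-1 they were 388, 324 and 393 CPM at 2500 cells and 496, 375 and 523 CPM at 5000 cells, and they overlapped. Without the most abundant segment of each library the highest sum at 2500 cells was 372.5 CPM and the lowest at 5000 cells 375.1 CPM.

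The make-up of these sums also differed from library to library. At 2500 cells the most abundant heavy chain segment of each library held 5.29, 4.62 and 5.49% of the heavy chain sum, and these were Ighv3-6, Ighv1-26 and Ighv1-64. At 5000 cells the leading segments Ighv1-80, Ighv4-1 and Ighv9-3 held 18.5, 16.7 and 6.91%. In the 6 libraries of more cells the leading share ranged from 5.76 to 9.44%. The 2 high values each came from 1 library. Ighv1-80 was at 91.7 CPM in replicate 1 of 5000 cells and at 12.3 and 12.8 CPM in the others. The kappa segment Igkv4-55 reached 96.8 CPM in the same library, against 6.90 and 12.8 CPM in its replicates. Ighv4-1 was at 75.1 CPM in replicate 2 of 5000 cells and between 0.940 and 2.21 CPM in the other 5 libraries. In that replicate the leading kappa segment was Igkv10-96, with 13.3% of the kappa sum. These segments were picked after their values were seen, and CPM of segments were not divided by length.

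Genes of the liver macrophages tended to lie higher at 2500 cells, but none of them passed the main edgeR test. DESeq2 called Slc40a1 and Marco, and the calls of edgeR without a filter on low counts included C1qa, C1qb and Cd5l. With limma-voom no gene was called. Of 14 Kupffer cell genes tested 12 had a positive difference, with a median of 0.34, and 9 (64.3%) lay wholly higher at 2500 cells, against 5.21% of all genes. Slc40a1, the iron exporter ferroportin, was at 261, 277 and 308 CPM at 2500 cells and 181, 227 and 208 CPM at 5000 cells, a log2 difference of 0.45 (SE 0.11, edgeR adjusted p = 0.2173). C1qa, a chain of the first complement component, was at 55.9, 63.4 and 74.2 CPM against 50.4, 45.0 and 45.8 CPM, a difference of 0.46 (edgeR adjusted p = 0.2447). Its partner chains C1qb and C1qc differed by 0.37 and 0.31, and the secreted scavenger protein Cd5l by 0.37. The scavenger receptor Marco was at 22.5, 25.5 and 9.30 CPM against 8.46, 8.48 and 6.55 CPM, so that the gap rested on replicates 1 and 2 of 2500 cells, and it passed the edgeR test when replicate 3 was left out. Clec4f, a lectin of Kupffer cells, overlapped between the inputs, as did the pan-macrophage genes Adgre1 and Cd68. The levels did not follow the number of cells: Slc40a1 averaged 282, 206, 253 and 216 CPM at 2500, 5000, 10000 and 20000 cells, and C1qa 64.5, 47.1, 56.3 and 41.9 CPM. Marker genes of 1 cell type can rise and fall together in a sample, so their count is not a count of independent results. C1qa and Cd5l were named by earlier results of these data, so this list too is no independent evidence of the direction.

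**Figure D3:**
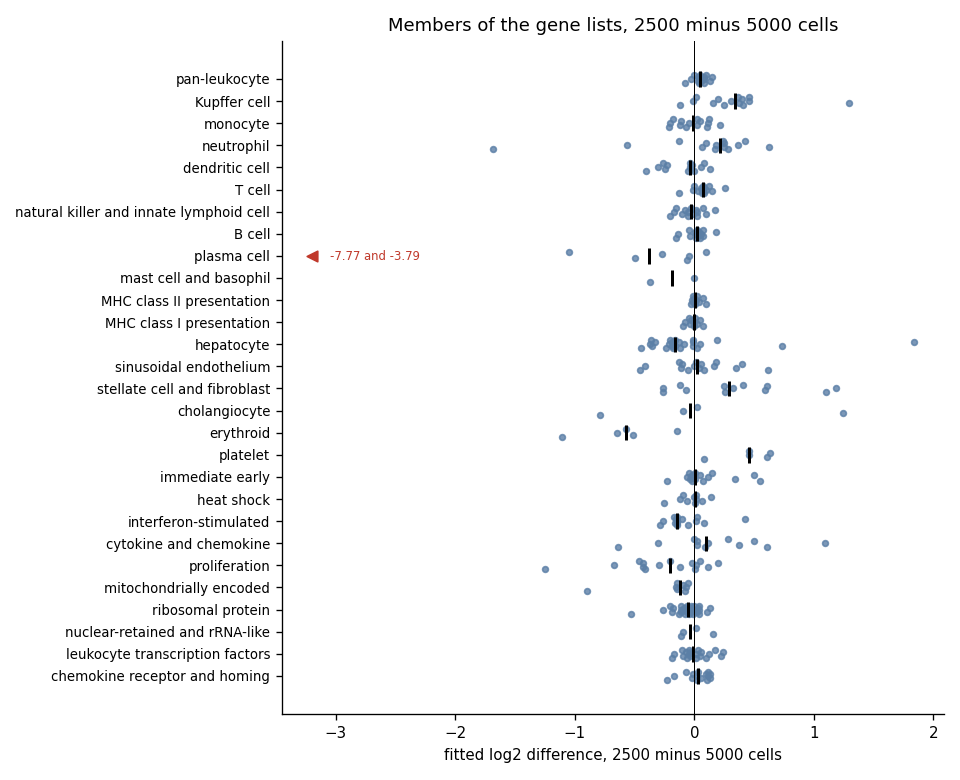
Fitted log2 differences of 2500 minus 5000 cells (horizontal axis) for the tested members of 28 gene lists (vertical axis), with 1 point per gene and a black bar at the list's median. The arrow marks 2 members of the plasma cell list beyond the axis (Jchain at -7.77 and Igha at -3.79). The Kupffer cell list has a median of 0.34, the platelet list 0.46, the stellate cell and fibroblast list 0.29 and the erythroid list -0.57. Most lists are centred near 0.

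Monocyte, dendritic, T and natural killer cell genes had medians close to 0, and no member passed the edgeR test. The median was -0.01 for 14 monocyte genes, -0.04 for 14 dendritic cell genes, 0.07 for 15 T cell genes and -0.03 for 15 natural killer and innate lymphoid genes. Every tested gene of these 4 lists lay within 1.5-fold. Wholly lower at 2500 cells were 2 monocyte genes (14.3%) and 2 natural killer and innate lymphoid genes (13.3%), against 4.98% of all genes. In these lists 0 lay wholly higher. Of the T cell genes 1 lay wholly higher and 1 wholly lower (6.67% each), and of the dendritic cell genes 0. Antigen presentation genes also had medians close to 0. The 11 class II genes, led by the invariant chain Cd74 (log2 difference 0.03), had a median of 0.003. The 11 class I genes, among them H2-D1 and B2m, had a median of -0.0005. In each of these 2 lists 1 gene (9.09%) lay wholly higher at 2500 cells, against 5.21% of all genes, and 0 wholly lower. The 20 leukocyte transcription factors and the 15 chemokine receptor and homing genes also lay within 1.5-fold throughout. Of the transcription factors 3 (15.0%) lay wholly higher at 2500 cells, against 5.21% of all genes, and 0 wholly lower. Neutrophil genes had a median of 0.21, with 2 of 14 wholly higher at 2500 cells: the gelatinase Mmp9 (0.24) and the G-CSF receptor Csf3r (0.18). That is 14.3% of the list, against 5.21% of all genes. The 2 tested genes of mast cells and basophils, Hdc (0.002) and Kit (-0.37), had a median of -0.18.

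The 16 immediate early genes, which respond within minutes to stress and dissociation, had a median of 0.01, and the 10 heat shock genes tested a median of 0.003. Interferon-stimulated genes had a median of -0.14 and ribosomal protein genes a median of -0.05. Of 15 proliferation genes 10 had a negative difference, with a median of -0.20. The mitotic genes Ccnb2 (-1.25) and Cdk1 (-0.43) lay wholly lower at 2500 cells, which is 13.3% of the list against 4.98% of all genes. Of 25 hepatocyte genes tested 20 were negative, with a median of -0.16, and none was without overlap. The 5 platelet genes tested were all positive (median 0.46) and the 5 erythroid genes all negative (median -0.57), each with overlap. The 12 stellate cell and fibroblast genes tested had a median of 0.29. Of these 2 (16.7%) lay wholly higher at 2500 cells, against 5.21% of all genes, and 0 wholly lower. Over all 347 tested members of the lists, 322 (92.8%) lay within 1.5-fold, against 92.3% of all genes. Wholly higher at 2500 cells were 25 (7.21%) and wholly lower 13 (3.75%), against 5.21 and 4.98% of all genes, and 1 passed.

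Beyond Jchain, none of the genes with the smallest p at 5 CPM or more passed edgeR's test, and each of them was without overlap between the inputs. The nearest to passing among those lower at 2500 cells was Dpy19l1, of a family of tryptophan C-mannosyltransferases, at 119, 93.8 and 91.2 CPM against 156, 143 and 152 CPM (log2 difference -0.56, edgeR adjusted p = 0.07062). It was followed by the mitotic cyclin Ccnb2 (-1.25), the RNA-binding splicing regulator Qk (-0.67), the IL-36 receptor Il1rl2 (-1.79), the endoplasmic reticulum oxidase Ero1l (-0.47) and Heca (-0.75), all with an adjusted p of 0.1334. Il1rl2 was at 4.44, 0.892 and 2.56 CPM at 2500 cells and at 7.28, 10.3 and 9.34 CPM at 5000 cells. Anxa4, Fbxo45 and the ubiquitin ligase Znrf2 had differences of -0.44, -0.57 and -0.78 (adjusted p = 0.1643 each). Among genes higher at 2500 cells, Atad5, which unloads the replication clamp from DNA, was at 20.1, 23.6 and 21.4 CPM against 14.3, 13.04 and 12.6 CPM (0.71, edgeR adjusted p = 0.1334). Spef2, a gene of the flagellar axoneme, had a difference of 1.68 at the same adjusted p. Zfp867 (0.96), Ccdc117 (0.39), the kinesin Kifc2 (0.85), the Notch co-activator Maml3 (0.76), Jrk (0.80), the Integrator subunit Ints6 (0.38) and Ankrd13c (0.46) followed, with adjusted p from 0.1643 to 0.2071. Lars2 (0.02) and Mir6236 (0.16), which earlier results of these data had named, did not pass here (adjusted p = 0.9781 and 0.7536). DESeq2 called 20 more of the named genes than edgeR did.

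Genes of 0.1 to 2 CPM were missed more often in each library of 2500 cells than in any of 5000 cells. Genes were sorted by their mean level in the 10000- and 20000-cell libraries, which were not compared, and every library was reduced by calculation to 8513416 counts. Among the 1478 genes of 0.5 to 1 CPM, 10.8, 8.71 and 12.3% had no count in the libraries of 2500 cells and 4.47, 5.32 and 3.81% had none in those of 5000 cells. The means were 10.6 ± 1.81% and 4.53 ± 0.761% (SD, n = 3 each), and their difference was 6.08 percentage points (two-sided exact permutation test, p = 0.1, the smallest that 3 against 3 libraries can give). If counting were the only source of error, 0.402% of these genes would have had no count at this depth. Both inputs exceeded that value.

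In percentage points the gap between the inputs narrowed with rising abundance. Relative to the share at 5000 cells, the share at 2500 cells grew from bin to bin up to 2 CPM. From 0.1 to 0.2 CPM the mean share without a count was 52.0% at 2500 cells and 43.3% at 5000 cells, against 30.2% from counting. From 0.2 to 0.5 CPM it was 28.8 and 20.3%, against 8.14% from counting. From 1 to 2 CPM it was 2.59 and 0.436%, and from 2 to 5 CPM it was 0.484 and 0.122%. The libraries of the inputs did not overlap in any bin up to 2 CPM. From 2 to 5 CPM the lowest library of 2500 cells (0.226%) lay below the highest of 5000 cells (0.240%). From 5 to 20 CPM the mean shares were 0.0641 and 0.0539% of 3201 genes. Dropout in all 3 libraries at once was counted at deposited depth, where the 2500-cell group held 27926417 counts and the 5000-cell group 33395193. It was 5.40% of genes of 0.2 to 0.5 CPM at 2500 cells and 1.66% at 5000 cells. For genes of 0.5 to 1 CPM it was 0.880 and 0.271%. The unequal depth favours detection at 5000 cells, so these shares cannot be set directly against those at equal depth.

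**Figure D4:**
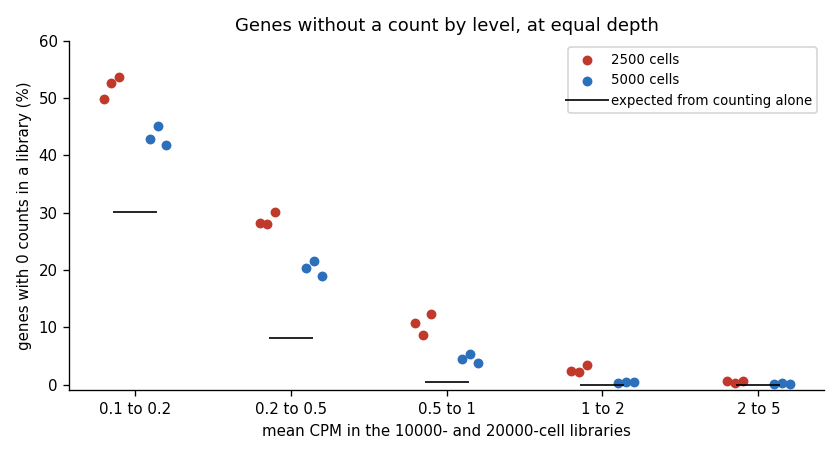
Share of genes with 0 counts in a library (vertical axis, percent) by mean level in the libraries of 10000 and 20000 cells (horizontal axis, CPM), at an equal depth of 8513416 counts, with 1 point per library and black bars at the share that counting alone would give. Points of 2500 cells lie above those of 5000 cells in each bin up to 2 CPM.

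At deposited depth 135 genes had no count in any library of 2500 cells and at least 1 in every library of 5000 cells, and 40 genes showed the reverse. The groups held 27926417 and 33395193 counts in all, and at equal depth the expected numbers were 112 and 52.0. Of the 135 genes 57 were protein coding, 13 exceeded 5 CPM in bulk liver, and the highest mean at 5000 cells was 1.22 CPM. That highest gene was the transporter Abca8b, with 0 counts at 2500 cells and 5, 18 and 19 at 5000 cells. It was at least 11.7-fold lower at 2500 cells against a floor of 3 counts over the group (edgeR adjusted p = 0.1643), and it measured 34.4 CPM in bulk liver. F13b, a subunit of coagulation factor XIII made by hepatocytes, had 5, 9 and 13 counts at 5000 cells and 199 CPM in bulk liver. Sec14l4 and the adrenergic receptor Adra1b, at 225 and 55.8 CPM in bulk liver, had 1, 20 and 2 and 7, 4 and 4 counts at 5000 cells. Fam83h, Slc35d3, Cxxc4, Hif3a and Gnai1 were the other named genes of this kind beside Tnfrsf17. In the reverse direction 16 of 40 genes were protein coding and 1 exceeded 5 CPM in bulk liver. Among those that are named here, Enah, a regulator of actin filaments, had the highest mean, with 9, 10 and 1 counts at 2500 cells. It was followed by Mpp2 (2, 9 and 3) and H2-Q1 (2, 2 and 8).

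The number of genes seen did not separate the inputs. At 8513416 counts the expected number of genes with a count was 20133, 19489 and 19518 at 2500 cells and 19990, 20095 and 20042 at 5000 cells. Replicates 2 and 3 of 2500 cells lay below all libraries of 5000 cells, and replicate 1 lay above them. The means were 19713 ± 364 and 20042 ± 52.7 (SD, n = 3 each), a difference of -329.3 genes (two-sided exact permutation test, p = 0.4).

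Replicates of 2500 cells differed more from each other than replicates of 5000 cells. Over 11079 genes of at least 5 CPM in the libraries of more cells, the median SD of log2(CPM + 1) between 3 libraries was 0.154 at 2500 cells and 0.116 at 5000 cells, and it was 0.107 at both 10000 and 20000 cells. The SD that counting alone implies, computed for each gene from its mean count, had a median of 0.0750 at 2500 cells and 0.0685 at 5000 cells. It is not an SD taken over 3 libraries, so the observed and counting values are not quite the same measure. The median SD of single pairs ranged from 0.113 to 0.136 at 2500 cells and from 0.0903 to 0.0949 at 5000 cells, so that each pair of the smaller input spread more than any of the larger. The biological coefficient of variation that edgeR estimated for each input was 17.8, 11.4, 8.91 and 7.71% from 2500 to 20000 cells. Genes are not independent replicates, and no test was made of the difference in spread. Its size depended on single libraries: the gap in median SD was 0.038, and 0.052 without replicate 1 or 0.024 without replicate 3 of 2500 cells.

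The excess was present in each bin from 0.2 CPM upwards. From 0.1 to 0.2 CPM the median SD was 0.151 at 2500 cells and 0.146 at 5000 cells. In that bin 50.6% of genes had the larger SD at 2500 cells, and 56.4% did from 0.2 to 0.5 CPM. From 1 to 2 CPM the values were 0.371 and 0.282, and above 100 CPM they were 0.0963 and 0.0699. The ratio of the inputs rose from 1.03 in the lowest bin to 1.38 in the highest. The 1 CPM added before the logarithm compresses differences at low levels, so ratios of low bins cannot be set directly against those above. Between 60.8 and 66.1% of genes in each bin above 0.5 CPM had the larger SD at 2500 cells.

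Some gene groups spread far more at 2500 cells than at 5000. Of 13 mitochondrially encoded genes of the respiratory chain 5 had no count in any of the 6 libraries, and the 8 tested had a median SD of 0.457 at 2500 cells and 0.106 at 5000 cells. Their summed share of counts was 2.03, 2.73 and 1.43% at 2500 cells and 2.20, 2.38 and 2.08% at 5000 cells, so that replicate 2 of 2500 cells was the highest and replicate 3 the lowest of the 6. The cytochrome b gene mt-Cytb followed this order, with 5509, 7135 and 3724 CPM against 5567, 6365 and 5309 CPM. Erythroid genes had a median SD of 1.65 and 0.172. The beta-globin gene Hbb-bs was at 2.38, 25.5 and 1.16 CPM at 2500 cells and 16.6, 13.5 and 16.9 CPM at 5000 cells, high in replicate 2 and low in the other 2500-cell libraries. Without that replicate Hbb-bs and Hba-a2 passed the edgeR test as lower at 2500 cells. Class II genes had a median SD of 0.150 and 0.0428, and hepatocyte genes 0.370 and 0.182. Of the 28 lists 8 had the larger median SD at 5000 cells: monocyte, T cell, platelet, heat shock, interferon-stimulated, cytokine and chemokine, ribosomal protein and nuclear-retained and rRNA-like. The values were 0.0906 and 0.126 for T cell genes and 0.0891 and 0.134 for ribosomal protein genes.

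Among 4747 genes of at least 50 CPM in the libraries of more cells, the SD exceeded 0.5 for 11 genes at 2500 cells and 5 at 5000 cells. Igha was the most variable gene at both inputs, with an SD of 1.48 and 0.69. It was followed at 2500 cells by Nufip2 (0.88), the mitochondrial ribosomal RNA mt-Rnr1 (0.72), the secretory cargo receptor Tmed9 (0.68) and the neurotrophin receptor scaffold Kidins220 (0.64). At 5000 cells Tmed9 (0.69), Jchain (0.52), the mitochondrial tRNA mt-Tq (0.51) and Nufip2 (0.51) followed. Nufip2 was at 81.8, 93.6 and 30.0 CPM at 2500 cells, and mt-Rnr1, Tmed9 and Kidins220 were likewise lowest in replicate 3.

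A few genes were carried by a single library of an input. By a rule set after the values were seen, at least 20 CPM in 1 library and at least 20 times the level of either replicate, replicate 2 of 2500 cells had 4 such genes. Replicates 3 and 2 of 5000 cells had 3 and 1, and the other 3 libraries had 0. Ngp and Ltf, which encode neutrophilic granule protein and lactoferrin of the secondary granules made by maturing neutrophils, met the rule at both inputs. Ngp was at 0, 124 and 0.465 CPM at 2500 cells and at 0, 0.138 and 107 CPM at 5000 cells. Ltf was at 1.08, 111 and 0 CPM and at 0, 0.414 and 74.2 CPM. Camp, the granule peptide cathelicidin, had 0, 15.0 and 0 CPM and 0, 0 and 23.1 CPM, with its high values in the same libraries. These 3 granule genes were thus present together in 1 library of each input and close to 0 in the other 4. Other neutrophil genes were present in more libraries, some of them with their highest values in the same 2. The granule protein lipocalin, Lcn2, was at 12.999, 44.9 and 23.1 CPM at 2500 cells and 13.2, 12.5 and 38.1 CPM at 5000 cells. The surface marker Ly6g, near the limit of detection, was at 0.108, 1.29 and 0 CPM and at 1.06, 0.483 and 3.37 CPM. S100a8, a calcium-binding protein of mature neutrophils, was at 301, 384 and 409 CPM and at 288, 323 and 436 CPM, and Csf3r lay between 253 and 323 CPM in all 6 libraries. Among the libraries of more cells Ngp was at 45.3, 1.42 and 0.103 CPM at 10000 cells and 8.63, 12.0 and 0 CPM at 20000 cells. The other 2 genes of replicate 2 of 2500 cells were the lipoxygenase Alox15, at 87.4 CPM and 0 in both its replicates, and the acute phase gene Saa3, at 36.3 CPM. Alox15 was at 53.4, 5.10 and 0 CPM at 5000 cells.

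**Figure D5:**
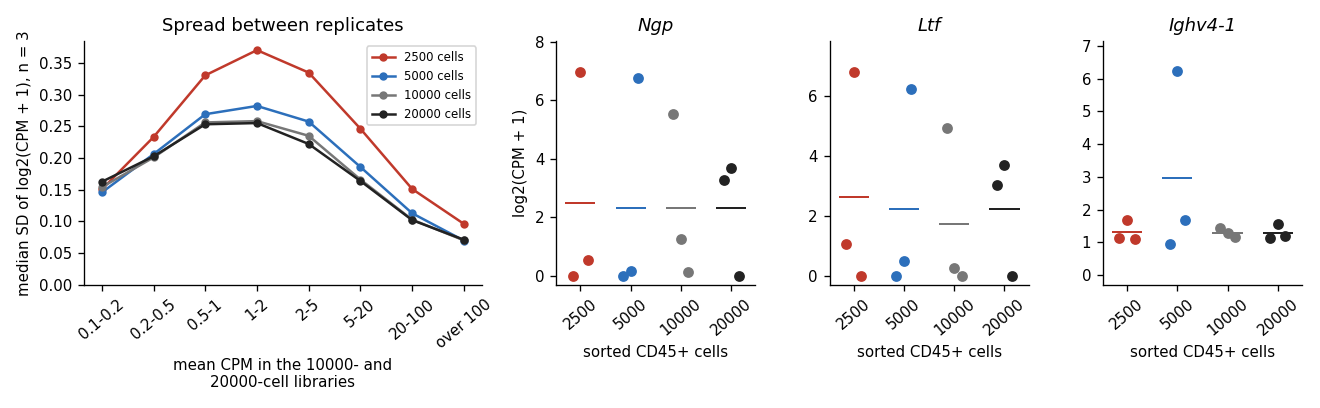
The left panel plots the median SD of log2(CPM + 1) between 3 libraries (vertical axis) by mean level in the libraries of 10000 and 20000 cells (horizontal axis, CPM), with 1 line per number of sorted cells. The other panels give log2(CPM + 1) of Ngp, Ltf and Ighv4-1 in each of the 12 libraries with a bar at the mean, where Ngp and Ltf are high in 1 library of 2500 cells and 1 of 5000 cells and Ighv4-1 in 1 of 5000 cells.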

How the data were processed

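Per the labels' protocols, total RNA was extracted from sorted cells on columns with DNase, reverse transcribed by SMART-seq v4 chemistry for ultra-low input in at most 10 amplification cycles, and tagmented. The reads carry no molecular identifiers in the sources used here, so amplified copies are not independent molecules and values set by counting cover counting error only. The authors deposited raw counts per gene as whole numbers for 48794 genes, and a TPM table whose columns each sum to the same total. The genome build was GRCm38 per the submitters' processing notes, which name featureCounts 1.5.1 and RSEM 1.3.0 beside the aligner STAR 2.5.2b, and further DESeq2 1.34.0 and FastQC 0.11.5, with no role or order. Strand setting, filters, annotation release and how reads shared by gene copies were counted are not given in the sources used here. Levels of single immunoglobulin segments are therefore uncertain. Of the gene IDs 48348 had a symbol, and coordinates came from GENCODE M21.

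The 12 sorted libraries, grouped by title, were fitted on the deposited counts with edgeR 4.0.16 in R 4.3.3 (filterByExpr, TMM factors, robust quasi-likelihood, a mean per group), adjusted by the Benjamini-Hochberg method at 0.05. The fit was tested on simulated data. Printed CPM use library totals, and log2 differences use TMM factors. SE was derived from the fitted difference and its F value. Spread used log2(CPM + 1). Dropout and detection used the probability, without random draws, of 0 counts in a subsample of 8513416 counts, the smallest total of the 6 libraries. The scipy 1.17.1 exact permutation test was used for both. Alternatives were other scalings, DESeq2 1.42.0, limma-voom and limma on log2(TPM + 1) (limma 3.58.1), no filter, 6 libraries only, a replicate block, a hepatocyte covariate, each library left out, and other cutoffs. The bulk libraries entered no test.

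The groups, the 28 lists with 377 genes and the rule for named genes were chosen with earlier results of these data known. The rule took Ptprc, the 10 genes per direction with the smallest p at 5 CPM or more, the 2 highest members of each list, up to 10 genes per direction without a count in 1 input, the 5 most variable genes per input, and Jchain, Igha, Lars2, Mir6236, Qk, C1qa and Cd5l. Other list members and immunoglobulin genes were picked as examples after their values were seen. Numbered gene models were counted and not named.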

Additional observations from a re-analysis of the deposited data

How the results depend on the processing

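The count of genes that passed was 2 with DESeq2 size factors, with library totals and with limma on log2(TPM + 1), and Jchain and Ighv1-63 were the shared calls. It was 1 (Jchain) with the 6 libraries alone and with the hepatocyte share as covariate, 34 with DESeq2, 0 with limma-voom (1259 at an unadjusted p under 0.05) and 136 (44 higher, 92 lower) without a filter on low counts. In the unfiltered fit the prior degrees of freedom were infinite and the SE of Igha fell from 0.626 to 0.0989; the cause of the larger count was not tested. With 1 library left out the count ranged from 1 (without replicate 2 of 5000 cells) to 6 (without replicate 1 of 2500 cells). Jchain was among the calls in each of these 6 fits, and its adjusted p ranged from 1.27e-07 to 0.01364.

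The replicate block, with the replicate numbers of the labels as a term, gave 1 call, Jchain (Ighv1-63 had an adjusted p of 0.08603). Deviations of same-numbered libraries from their group means correlated at -0.07, -0.03 and -0.0009 over 11076 genes. Those of differently numbered libraries correlated at -0.042 to 0.081. In the labels the samples share only a number, and these values cannot show whether same-numbered samples came from the same animal. Over 92 named genes and 15 settings 1318 values kept their side of the threshold. Lost from it were 9 values of 2 genes, and 51 values of 26 genes passed newly. Among values that passed in the main fit or in the alternative 0 reversed direction. Direction was not compared for values that passed in neither.

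The gap in median SD ranged from 0.024 to 0.052 with 1 library left out (values of a remaining pair were scaled to 3 libraries), and it was 0.030 to 0.046 under the other settings. The gap in dropout was 5.23 to 7.03 percentage points with 1 library left out, and the gap in detected genes was -217.1 to -539 genes. The latter was -109.7 genes with at least 5 counts required and -651.7 genes without reduction to equal depth. Depth and 3 libraries a group limit what can be seen at low levels, and no permutation test of 3 against 3 could pass 0.05. An equal depth of 6723357 counts, added after the data were seen, gave a gap of -295.3 genes.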
